A study of Mus musculus with 4 samples.

Results

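A set of 10 genes that make antiviral effector proteins in response to interferon was examined in immature granulocytes, marrow cells on the way to becoming neutrophils. They are Ifit1, Ifit2, Ifit3, Isg15, Isg20, Usp18, Mx1, Mx2, Rsad2 and Ifi27l2a, and were taken from the scanner files as every non-control probe whose gene name equals 1 of these 10 names. All 10 genes had a probe, and they came to 17 of the 41174 probes and 10 of the 27630 gene names on the array. The cells were sorted from bone marrow of male C57BL/6 animals of 2 genotypes, with 2 arrays each: wild type (WT), and a knockout of the microRNA miR-223 (KO). The comparison asks which transcripts differ when miR-223 is absent. No age, kind of deletion or treatment is given, and the labels do not say whether samples of a genotype are different animals. The p-values therefore reflect only how far these samples differ, which could be technical spread.

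Interferons bind receptors at the cell surface, and receptor-bound kinases then switch on a transcription factor complex that contains Irf9. This complex binds the interferon-stimulated response element in the promoters of effector genes and activates them, in granulocytes as in most cells. miR-223 is a small regulatory RNA, abundant in myeloid cells, that lowers the transcripts it pairs with through its seed, bases 2 to 8 of the mature strand.

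The strands of miR-223 and the promoters show what can be read from sequence about these genes. The mature strands are printed from RefSeq (GRCm38.p6, chromosome X), because the KO lacks them, with the seed in capitals; they lie at chrX:96242884-96242905 and chrX:96242842-96242864 on the plus strand.
mmu-miR-223-3p: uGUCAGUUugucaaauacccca
mmu-miR-223-5p: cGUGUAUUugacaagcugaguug
The heptamer that pairs with the seed of the 3p strand, AACTGAC, was in 0 of the 17 probe sequences, against 99 of all 25749 probes tested (0.384%). A probe covers 60 bases of a transcript, so this says nothing about the rest of it.

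RefSeq promoter windows, from 250 bases before to 50 bases after a transcription start in GRCm38.p6, matched 6 of the 10 genes by symbol, with 9 windows in all. Usp18, Mx1, Mx2 and Ifi27l2a are named only. The response element core was searched as GAAA, any 2 bases and GAAA on both strands, with overlapping matches counted. It was in 4 of the 9 windows, those of Ifit1, Ifit3, Isg15 and Rsad2, and in 1131 of all 32841 windows (3.44%). The 160 bases before the start are printed 5′ to 3′ in the sense of the gene for these 4 genes and, since Ifit2 differed from Ifit1 and Ifit3 on the arrays, for the first start of Ifit2. Capitals mark the core or its reverse complement.
Ifit1, chr19:34640729-34640888, plus strand: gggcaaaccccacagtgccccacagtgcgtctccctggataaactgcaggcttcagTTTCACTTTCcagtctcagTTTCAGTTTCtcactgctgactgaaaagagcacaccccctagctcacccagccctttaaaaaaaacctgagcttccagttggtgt
Ifit3, chr19:34583369-34583528, plus strand: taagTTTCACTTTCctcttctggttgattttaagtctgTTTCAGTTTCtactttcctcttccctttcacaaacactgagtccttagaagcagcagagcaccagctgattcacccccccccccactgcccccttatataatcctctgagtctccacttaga
Ifit2, chr19:34550534-34550693, plus strand: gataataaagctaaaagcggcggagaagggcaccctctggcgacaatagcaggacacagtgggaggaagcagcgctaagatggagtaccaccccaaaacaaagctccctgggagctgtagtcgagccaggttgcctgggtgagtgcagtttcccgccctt
Isg15, chr4:156200819-156200978, minus strand: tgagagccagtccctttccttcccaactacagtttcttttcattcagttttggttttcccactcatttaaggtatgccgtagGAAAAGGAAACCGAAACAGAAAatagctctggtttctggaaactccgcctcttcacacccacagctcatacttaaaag
Rsad2, chr12:26456453-26456612, minus strand: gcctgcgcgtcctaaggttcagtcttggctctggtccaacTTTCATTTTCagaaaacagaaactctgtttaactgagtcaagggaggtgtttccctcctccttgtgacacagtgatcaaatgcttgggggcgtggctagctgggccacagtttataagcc
Ifit1 and Ifit3 held the same pair of motifs, TTTCACTTTC nearer to the upstream end and TTTCAGTTTC nearer to the start. In Ifit1 they began at positions -104 and -85, and in Ifit3 at -156 and -122. Isg15 held 3 overlapping matches that began at -78, -72 and -66, and Rsad2 had 1 at -120. No match was found in the windows of the 2 starts of Ifit2 or of the 3 starts of Isg20, which says only that these letters are not in those windows. Other starts were not searched, and a link between matches and array values was not tested. The gamma-activated site, TTCNNNGAA, the element of the interferon gamma response, was in 2 of the 9 windows, at -241 for the first start of Ifit2 and at -73 for the first start of Isg20. It was in 8.3% of all windows.

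**Figure D1:**
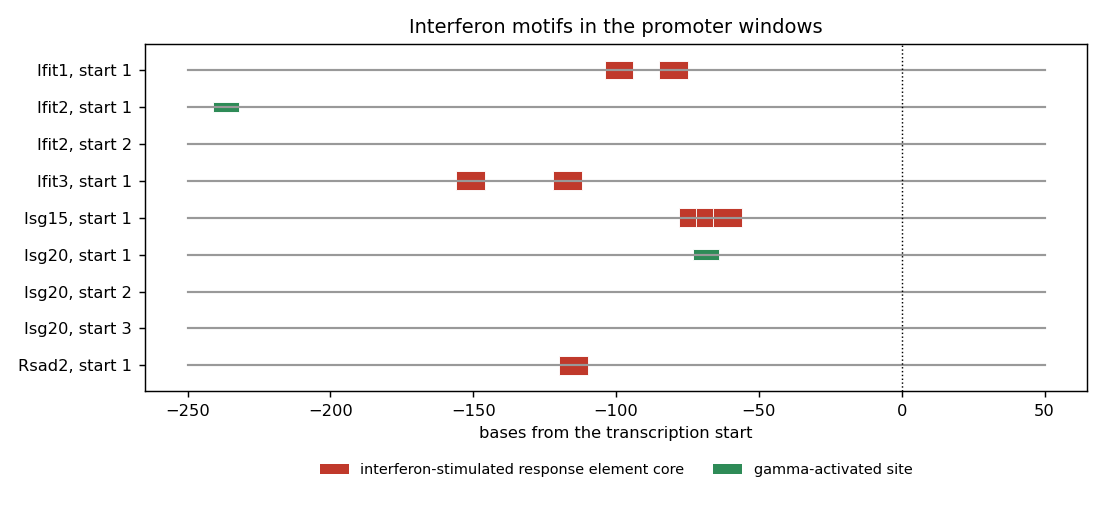
Matches to the response element core (red) and the gamma-activated site (green) in the 9 promoter windows of 6 effector genes, with the x axis in bases from the transcription start. Red boxes stand in the rows of Ifit1, Ifit3, Isg15 and Rsad2, and green boxes in the first rows of Ifit2 and Isg20; 3 rows hold no box.

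Each array was read in a single colour, and a value here is a log2 scaled signal: the log2 of a probe's background-subtracted signal over the 75th percentile of its array, so that 0 is that percentile and a difference of 1 is 2-fold. That percentile was a signal of 314 and 310.5 on the WT arrays and 361 and 422 on the KO arrays. Between 59.6% and 62.9% of spots were well above background, and none was saturated. Log2 values of the 25749 probes that were well above background on at least 2 arrays correlated across probes at 0.994 within WT, 0.993 within KO and 0.988 to 0.99 between genotypes. The markers of the labelled cell type were present on all arrays: Mpo, a primary granule enzyme, lay between 9.98 and 10.23, and the secondary granule protein Ltf between 9.35 and 10.13. Only 4 arrays were made, and this number limits the precision of every value below. In RNA from many cells, more cells with a transcript and more transcript per cell cannot be told apart.

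Among the effectors, 9 of the 10 genes were higher in the KO samples and Ifit2 was lower, reading each gene from its brightest probe. Under 1 background correction Ifit1, Ifit3, Mx1 and Mx2 turned lower, with the median of all probes at -0.31. Without scaling Ifit2 was level, with that median at 0.29. The median log2 difference, KO minus WT, was 0.90 over the 16 probes tested, against -0.03 over all 25749. For 6 probes, of Ifit1, Isg15, Usp18 and Ifi27l2a, the difference was 2-fold or more, as it was for 317 probes (1.23%) in all. Both KO arrays lay above both WT arrays for 14 of the 16 probes and below them for 2; over all probes tested the shares were 26.3% and 32.8%. None of the 16 passed limma's test after Benjamini-Hochberg adjustment over all probes (adjusted p between 0.0874 and 0.302), and neither did any other probe (0 of 25749, 0.0%). At an unadjusted limma p under 0.05, 12 of the 16 were higher and 2 lower, beside 11.1% and 13.6% of all probes. The count of lower probes is thus near its background. With limma's prior variance following signal intensity, 9 of the 16 passed after adjustment, all higher, against 5.03% of all probes higher and 4.6% lower. These 9 probes are of Ifi27l2a, Ifit1, Isg15, Isg20, Rsad2 and Usp18.

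**Figure D2:**
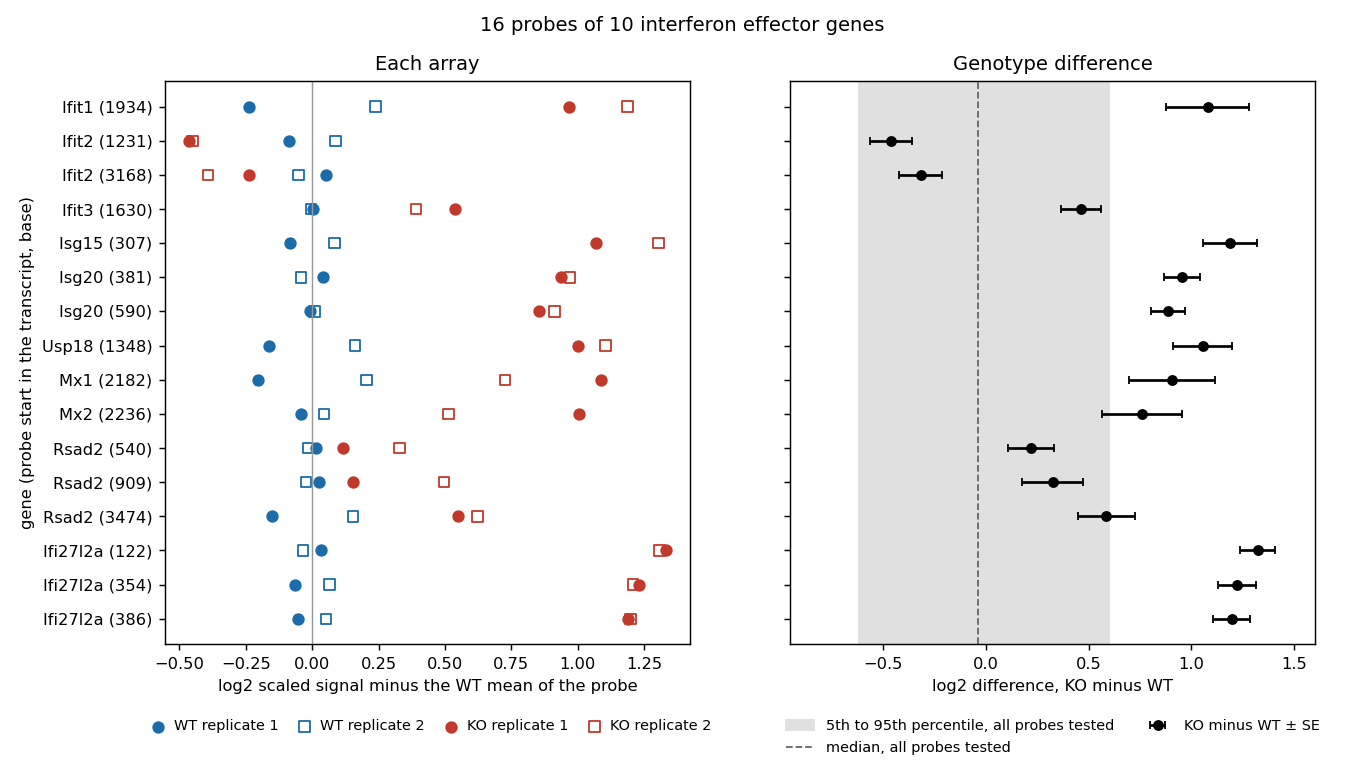
Left, the log2 scaled signal of each tested probe on each array minus the WT mean of that probe (filled circles replicate 1, open squares replicate 2). Right, the log2 difference KO minus WT with its standard error from limma, the grey band running from the 5th to the 95th percentile of all probes tested (-0.61 to 0.60). KO points lie to the right of WT points in every row but those of Ifit2. Its 2 probes are lower relative to the 75th percentile, and their signals overlap between genotypes before scaling.

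Isg15 is a ubiquitin-like protein that is joined to newly made proteins and is also released from cells; in neutrophils it can leave with granules. It was read by 1 probe. In WT the log2 scaled signal of Isg15 was -0.70 and -0.53, and in KO 0.46 and 0.69. Both KO samples lay above both WT samples by more than either pair differed within itself. The log2 difference was 1.19 ± 0.13 (SE, n = 2 and 2; 2.28-fold; limma adjusted p = 0.0898), larger than that of 99.3% of all probes tested.

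Usp18 is the protease that removes Isg15 from proteins, and it also damps signalling by binding the interferon receptor chain Ifnar2. Its probe (chr6:121220513-121220572, plus strand, mm9 as for all probes) read -1.56 and -1.24 in WT, against -0.40 and -0.30 in KO. The groups did not overlap, and the WT samples stood further apart than the KO samples. The log2 difference was 1.05 ± 0.14 (SE; limma adjusted p = 0.0899). All 5 enzymes tested that join Isg15 to proteins were higher as well, by smaller amounts; with normexp fitted on all spots 4 of the 5 were. Uba7, the activating enzyme, was at 3.72 and 3.63 in WT and 4.07 and 4.14 in KO, a log2 difference of 0.44 ± 0.09 (SE). The conjugating enzyme Ube2l6 differed by 0.40 ± 0.11, the ligase Trim25 by 0.37 ± 0.09 and the ligase Herc6 by 0.26 ± 0.11. Of the 5 genes of this cascade 3 had an unadjusted p under 0.05, all higher, where 11.9% of the 16978 genes tested were higher and 12.1% lower at that threshold. None passed after adjustment, and the median was 0.37 against -0.02 over all genes.

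Ifit proteins bind viral RNA by its unusual 5′ ends and stop its translation, and Ifit2 and Ifit3 associate with Ifit1. Their genes lie side by side on chromosome 19, and in the values given here Ifit2 differed in direction from the other 2. With normexp background correction fitted on all spots all 3 were lower in KO, as was the median of all probes, at -0.31. Ifit3, at -0.22, was above that median. Ifit1 (probe at chr19:34723796-34723855, plus strand) read -4.42 and -3.94 in WT, against -3.21 and -2.99 in KO. The KO samples were above the WT samples, which differed from each other by 0.48. The log2 difference was 1.08 ± 0.20 (SE; 2.11-fold; limma adjusted p = 0.104). For Ifit3 (chr19:34663105-34663164) the values were -2.0 on both WT arrays and -1.46 and -1.61 in KO. That is a log2 difference of 0.46 ± 0.10 (SE; limma adjusted p = 0.111), again without overlap.

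Ifit2 had 2 probes and both were lower in KO relative to the 75th percentile. The probe that starts at base 1231 of the transcript (chr19:34648307-34648366) is printed because its direction differs from that of the neighbouring genes.
Ifit2 probe at 1231: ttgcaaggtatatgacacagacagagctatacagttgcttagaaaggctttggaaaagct
It read -1.30 and -1.12 in WT and -1.68 and -1.66 in KO, a log2 difference of -0.46 ± 0.10 (SE; limma adjusted p = 0.119). The brighter probe, at base 3168 (chr19:34650244-34650303), read -0.41 and -0.51 in WT and -0.70 and -0.85 in KO, a difference of -0.32 ± 0.10 (SE; limma adjusted p = 0.182). The groups did not overlap at either probe. The direction depends on the scaling, however. Before scaling, the brighter probe had signals of 237 and 218 in WT and 223 and 233 in KO, which overlap, as do those of the other probe (128 and 142 in WT, 113 and 133 in KO). For the brighter probe the fit without any scaling gave 0.0068, with the median of all probes at 0.29. At the brighter probe Ifit2 was thus about level in raw signal while most probes, and the other effectors, were brighter on the KO arrays. At the other probe KO replicate 1, at 113, was below both WT signals, and KO replicate 2, at 133, lay between them.

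A shift of a whole array cancels in the gap between the Ifit genes, but the gap depended on the background correction. In the setting used here, the difference of Ifit1 exceeded that of Ifit2 (brighter probe) by 1.39 on the log2 scale, being 1.21 on KO replicate 1 and 1.58 on KO replicate 2 against the WT mean. The difference of Ifit3 exceeded that of Ifit2 by 0.78, with 0.78 on both KO arrays. The 2 WT arrays differed in these same contrasts by 0.58 and 0.10. With normexp fitted on all spots the first gap turned to -0.28 and the second was 0.16, and with control spots left out of that fit they were 0.42 and 0.48. These contrasts were chosen after the directions were seen, and no test is given.

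The Mx proteins are large GTPases that trap viral nucleocapsids; common laboratory strains, C57BL/6 among them, carry alleles of Mx1 that make no working protein. Mx1 had 2 probes on chromosome 16. The probe at chr16:97672001-97672060 was not well above background on any of the 4 arrays and was not tested. The other, at chr16:97669616-97669675 on the minus strand, read -4.60 and -4.19 in WT, against -3.31 and -3.67 in KO. The log2 difference was 0.91 ± 0.21 (SE; limma adjusted p = 0.122), and the groups did not overlap. Signals there were low, 12.9 and 17 in WT and 36.4 and 33.1 in KO.

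Mx2 (chr16:97782327-97782386, plus strand) read -2.79 and -2.70 in WT and -1.74 and -2.23 in KO. KO replicate 1 was the highest, and the 2 KO samples were 0.49 apart, the widest gap between replicates among the 16 probes. The log2 difference was 0.76 ± 0.19 (SE; limma adjusted p = 0.135). Without KO replicate 1 it was 0.51, and without KO replicate 2 it was 1.01.

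Rsad2 encodes viperin, an enzyme that makes a chain-terminating nucleotide, and 3 probes read it at different places on the minus strand of chromosome 12. The probes that start at bases 540 and 909 span 3302 and 3039 bases of the genome (chr12:27135585-27138886 and chr12:27130424-27133462), so each crosses a junction between exons. They are printed because their differences were smaller than that of the third probe.
Rsad2 probe at 540: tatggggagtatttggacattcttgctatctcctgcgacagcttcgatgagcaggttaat
Rsad2 probe at 909: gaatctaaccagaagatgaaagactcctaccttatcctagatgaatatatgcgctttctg
The probe at 540 read -3.78 and -3.81 in WT and -3.68 and -3.47 in KO, a log2 difference of 0.22 ± 0.11 (SE; limma adjusted p = 0.302). For the probe at 909 the values were -4.36 and -4.41 in WT and -4.23 and -3.88 in KO, a difference of 0.33 ± 0.15 (SE; limma adjusted p = 0.266). KO samples were above WT samples at both, with KO replicate 1 close to the WT samples. The third probe, at base 3474 (chr12:27127859-27127918), was the brightest and read -1.20 and -0.89 in WT and -0.49 and -0.42 in KO. There the difference was 0.59 ± 0.14 (SE; 1.5-fold; limma adjusted p = 0.123). These are the effector probes whose unadjusted p was 0.117 at base 540, 0.0906 at base 909 and 0.0131 at base 3474. Signals were low at bases 540 and 909, between 14.65 and 38.2 over the 4 arrays, against 137 to 315 at base 3474. Whether the probes differ from each other was not tested.

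Isg20 is an exonuclease that degrades single-stranded RNA, and its 2 probes gave closely similar values. They lie on chromosome 7 at chr7:86059311-86059370 and chr7:86061478-86061537, plus strand, and start at bases 381 and 590 of the transcript. Both sequences are shown, since no other gene with several probes had replicates as close at all of its probes.
Isg20 probe at 381: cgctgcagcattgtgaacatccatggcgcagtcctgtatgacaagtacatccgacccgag
Isg20 probe at 590: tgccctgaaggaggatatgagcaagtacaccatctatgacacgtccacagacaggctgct
At 381 the values were -0.64 and -0.72 in WT and 0.26 and 0.29 in KO, and at 590 they were 0.21 and 0.22 in WT and 1.07 and 1.13 in KO. No gap between replicates exceeded 0.09, and both genotypes differed by far more than that. The log2 differences were 0.95 ± 0.09 and 0.88 ± 0.08 (SE; limma adjusted p = 0.0874 for both).

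Ifi27l2a encodes a small hydrophobic protein of the Ifi27 family and its brightest probe differed about as much as that of Isg15; which of the pair was larger changed with the setting. Its 3 probes lie on the minus strand of chromosome 12. The probe that starts at base 122 (chr12:104681106-104681165) gave the largest log2 difference of the 16 probes and is printed for that reason.
Ifi27l2a probe at 122: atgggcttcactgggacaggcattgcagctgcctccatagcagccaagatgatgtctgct
It read 2.30 and 2.23 in WT and 3.60 and 3.57 in KO, a log2 difference of 1.32 ± 0.08 (SE; 2.50-fold; limma adjusted p = 0.0874), above 99.5% of all probes tested. The brightest probe, at base 386 (chr12:104680394-104680453), read 3.32 and 3.43 in WT and 4.56 and 4.57 in KO, a difference of 1.19 ± 0.09 (SE; limma adjusted p = 0.0874). At the third probe the values were 2.32 and 2.45 in WT and 3.62 and 3.60 in KO, a difference of 1.22 ± 0.09 (SE). KO samples stood apart from WT samples at all 3 probes, with replicates no more than 0.13 apart.

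The third probe carries the name Ifi27l2a in the files but is placed elsewhere, at chr12:104693928-104693987, beyond the probe named Ifi27l2b at chr12:104689276-104689335. Aligned without gaps to the brightest probe it had 42 of 47 overlapping bases identical (89.4%), and the longest run they shared was 21 bases.
Shared run: ccaaaaggcaccttcagaacc
The 2 probes may therefore read near-identical transcripts, and their values are not independent. The probe named Ifi27l2b had 25 of 59 bases in common with the brightest probe (42.4%) and read -4.67 and -4.76 in WT and -5.16 and -4.32 in KO. Its log2 difference was -0.02 ± 0.31 (SE), with KO samples on both sides of the WT samples at a low signal. The probe named Ifi27l1, another gene of the family, was far brighter, at 4.83 and 4.76 in WT and 5.065 and 5.35 in KO. Its log2 difference was 0.42 ± 0.13 (SE, limma adjusted p = 0.173).

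The genes around the effectors in the pathway were read from lists, by brightest probe. Of 9 interferon genes listed, 7 had a probe and 3 were tested; Ifnb1, Ifna2, Ifna4 and Ifne were not, being well above background on fewer than 2 arrays. The 3 tested (Ifnab, Ifng and Ifnl3) had log2 differences between -0.03 and 0.06, and none had an unadjusted p under 0.05. Their signs changed with the scaling, their median was -1.12 with normexp fitted on all spots, and the SE of Ifng was 0.80, so these values are poorly determined. Of 6 receptor chains 5 were higher and 1 lower, with a median of 0.13 and none at an unadjusted p under 0.05. Ifngr2, which responds to interferon gamma, differed by 0.22 ± 0.08 (SE), and the shared type I chain Ifnar1 by 0.14 ± 0.10.

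Among 11 kinases and transcription factors of the signalling chain 9 were higher and 2 lower. At an unadjusted p under 0.05, 4 were higher and 0 lower, beside 11.9% and 12.1% of all genes. The 4 were Irf7, Irf9, Irf5 and Irf8. Irf7, the factor that amplifies type I interferon, was at -0.52 and -0.40 in WT and 0.26 and 0.53 in KO, a log2 difference of 0.86 ± 0.13 (SE; limma adjusted p = 0.0952). Irf9, the DNA-binding part of the complex that binds the response element, was at 1.09 and 1.12 in WT and 1.6 and 1.72 in KO, a difference of 0.56 ± 0.09 (SE; limma adjusted p = 0.0954). Of 5 feedback inhibitors other than Usp18, Socs3 stood at 1.03 ± 0.13 (SE; limma adjusted p = 0.0898) and had the only unadjusted p under 0.05. Socs1, the inhibitor of Jak kinases best known in this pathway, differed by -0.06 ± 0.14.

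Other interferon-induced genes were also mostly higher in KO. Of 35 tested, 33 were higher and 2 lower, with a median of 0.60. At an unadjusted p under 0.05, 27 were higher and 0 lower, beside 11.9% and 12.1% of all genes. None passed after adjustment. With the intensity trend 23 did, all higher, beside 5.03% of all probes. For 30 of the 35 both KO samples were above both WT samples, as they were for 26.3% of all probes. Under 6 other background corrections and scalings 31 to 35 of the 35 were higher, with medians from 0.50 to 0.92. Oas1a, which makes the activator of the RNA-degrading enzyme RNase L, was at 1.68 and 1.71 in WT and 2.82 and 2.97 in KO (difference 1.2 ± 0.10, SE). Next in order of p were Parp14 at 0.81 ± 0.08, Trim30a at 0.79 ± 0.09 and Oas3 at 1.21 ± 0.14. The lower pair were Iigp1, a GTPase that attacks the vacuoles of parasites, at -0.29 ± 0.25, and Daxx at -0.05 ± 0.09. Of 9 sensors and adaptors that start interferon production, 2 had an unadjusted p under 0.05, Sting1 at 0.65 ± 0.14 and Tlr7 at 0.36 ± 0.11, and the median was 0.03; this count is near the share of all genes at that threshold, 11.9% higher and 12.1% lower.

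**Figure D3:**
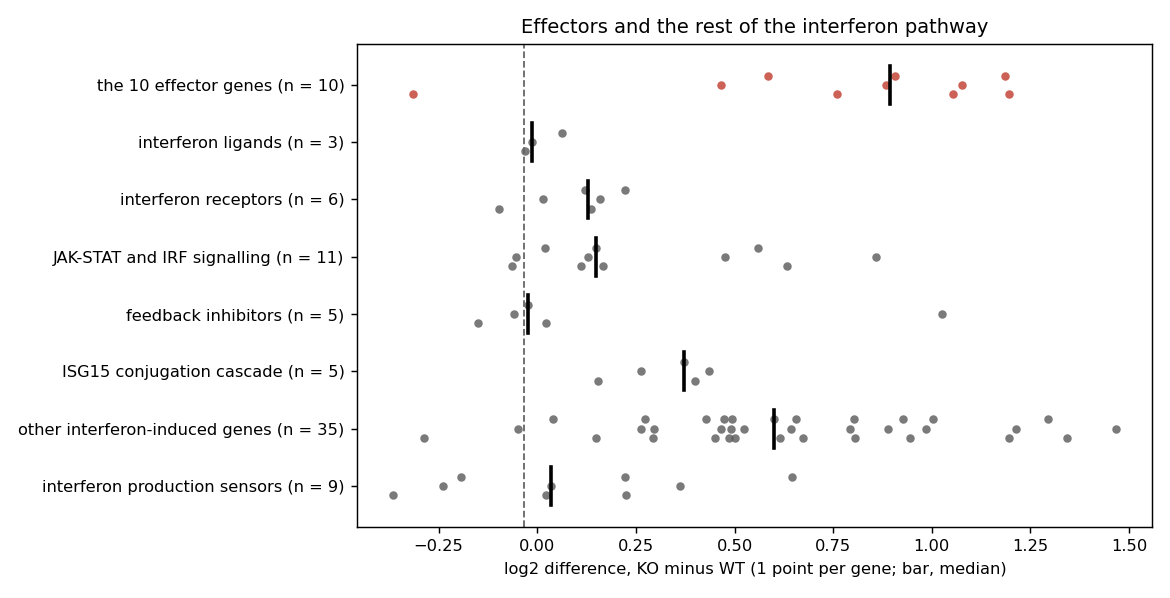
Log2 difference, KO minus WT, of each gene tested (1 point per gene, brightest probe) in 8 groups of the interferon pathway, with the group's median as a bar and the median of all probes as a dashed line. The medians of the effectors (0.90) and of the other interferon-induced genes (0.60) lie to the right of those of ligands (-0.01), receptors (0.13), signalling genes (0.15) and sensors (0.03). This order changed with normexp fitted on all spots, where the median of all probes was -0.31. There the median of the effector probes was -0.0325, below receptors (0.49), signalling genes (0.54), sensors (0.20) and the other induced genes (0.60).

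Genes listed as markers of other cells differed between the same samples. Their counts at an unadjusted limma p under 0.05 stand beside a background of 11.9% of all genes higher and 12.1% lower. Of 11 monocyte and macrophage markers, 10 were higher in KO and 8 had an unadjusted p under 0.05, with a median log2 difference of 0.71. Their summed scaled signal (in units of the array's 75th percentile) was 668 on both WT arrays and 764 and 697 on the KO arrays. Such a sum is weighted towards the brightest marker, here Ly6c2, whose log2 difference was 0.04 ± 0.10 (SE). It therefore says little about the dimmer markers of a list. Ly6c2 was at 9.10 and 9.09 in WT, and which cells it came from was not tested. The receptor Csf1r, which defines the lineage, was at 1.59 and 1.57 in WT and 2.57 and 2.12 in KO. Eosinophil and basophil markers were higher for 4 of 6 genes, all 4 at an unadjusted p under 0.05 (2 of 6 were higher with normexp fitted on all spots), with sums of 12.5 and 10.7 in WT and 18.1 and 16.8 in KO. Dendritic cell markers were higher for 8 of 11 (4 at that threshold), with sums of 58.9 and 64.6 in WT and 103 and 79.1 in KO. That list shares Bst2 and Irf8 with the interferon lists, and Siglech, which marks plasmacytoid cells that make much interferon, ranged over -0.49 and -3.26 in WT and -2.16 and -4.26 in KO. Each marker tested was well above background on at least 2 arrays, and their part in the effectors' values was not tested.

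Of the remaining lists, erythroid markers were lower for 4 of 4 genes (sums of 45.9 and 44.5 in WT, 33.6 and 25.8 in KO). All 4 had an unadjusted p under 0.05, a threshold at which 11.9% of all genes were higher and 12.1% lower. T and NK cell markers were lower for 7 of 8, and for 3 of 8 without scaling (1.26 and 1.14 in WT, 0.736 and 0.51 in KO). B lineage markers, of which 4 of 7 were higher without scaling, were lower for 6 of 7 (6.27 and 6.79 in WT, 9.22 and 7.24 in KO). At an unadjusted p under 0.05, 0 T and NK cell markers were higher and 1 lower, near the share of all genes. For B lineage 1 was higher and 2 lower. The sums of both lists are weighted towards the brightest marker of the list. For B lineage this was Cd79b, the only marker that was higher with scaling, by 0.46 ± 0.13 (SE). For T and NK cells it was Cd3d, which differed by -1.43 ± 0.08 (SE). The 11 neutrophil markers measured were split, 6 higher and 5 lower, with a median of 0.05. At that threshold 3 were higher and 0 lower. The 3 encode granule proteases: Prtn3 at 0.72 ± 0.10 (SE), Ctsg at 0.63 ± 0.09 and Elane at 0.50 ± 0.10. Mpo differed by 0.05 ± 0.13, and Ltf was the lowest at -0.44 ± 0.24. With normexp fitted without control spots the split was again 6 higher and 5 lower (median 0.09). Under other settings most of the 11 were higher: 11 of 11 with normexp fitted on all spots (median 0.53), 9 with quantile normalization, 8 with median scaling and 10 with no scaling (0.37). The summed scaled signal of these markers came to 5838 and 6390 on the WT arrays, and to 6164 and 5449 on the KO arrays, so that the genotypes overlap.

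The mean profile of the 10 genes, each centred on its own mean, was -0.48 and -0.30 on the WT arrays, and 0.41 and 0.37 on the KO arrays. The 6 named genes outside the list with the smallest Euclidean distance to it over the 4 arrays were Ctsc (0.0341), Galnt9 (0.0429), Emilin2 (0.0501), Adam19 (0.0562), Pros1 (0.0601) and Glipr1 (0.0609). Their log2 differences ran from 0.76 to 0.83. Ctsc, the protease that activates the serine proteases of granules, was at 0.62 and 0.77 in WT and 1.48 and 1.43 in KO. With 4 arrays such a match is a description and is shared by any gene with the same step between genotypes.

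The values of the 10 genes under other ways of processing are shown together, because the direction of some depends on the background correction. Isg15, Isg20, Usp18, Rsad2 and Ifi27l2a were higher in KO under all 16 alternatives. Ifit1, Ifit3, Mx1 and Mx2 were higher under 15 of the 16. With normexp fitted on all spots, where the median of all probes was -0.31, they were lower, at -0.66, -0.22, -0.80 and -0.35. With control spots left out of that fit they were again higher, at 0.18, 0.24, 0.05 and 0.33. Ifit2 was lower under 15 of the 16, between -0.39 and -0.23, and at 0.0068 with no scaling.

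**Figure D4:**
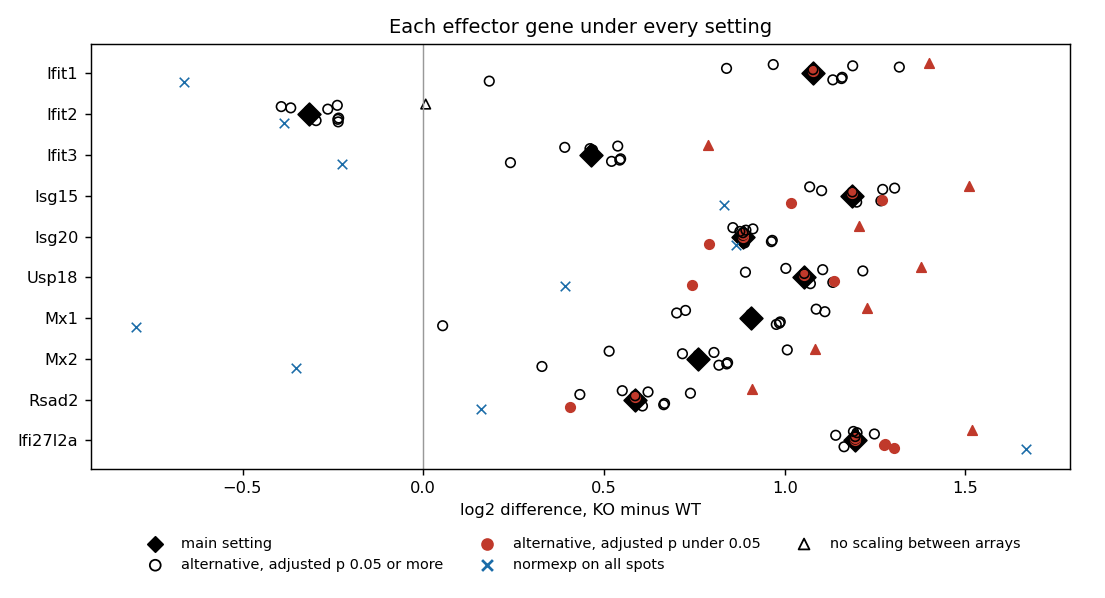
Log2 difference, KO minus WT, of each effector gene (brightest probe) in the main setting (diamond) and under each alternative (red where the limma adjusted p is under 0.05). Crosses mark normexp on all spots, where Ifit1, Ifit3, Mx1 and Mx2 lie left of 0, and triangles mark no scaling between arrays, where every gene lies further right and Ifit2 sits at 0.0068.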

How the data were processed

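RNA from 4 sorted granulocyte samples was hybridised to 1-colour arrays, all on 1 slide with the genotypes alternating. Per the file headers, Agilent Feature Extraction 10.5.1.1 read each scan, and the deposited intensity is the processed signal of each spot after background subtraction, with no scaling across arrays. A value table deposited by the authors gives log2 values, which tracked these signals up to an offset per array (Pearson's r at least 0.9999), and was used as an alternative. Probe coordinates are on mm9, per the file headers; exon annotation of that build was not used here.

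Log2 signals had the 75th percentile of non-control spots subtracted, spots of a probe were averaged, and a probe was kept if it stood well above background on 2 or more arrays. limma 3.58.1 (lmFit and eBayes, R 4.3.3) compared KO with WT over all 25749 probes, with Benjamini-Hochberg adjustment and a threshold of 0.05, and was tested on simulated data. A gene was read from its brightest probe. Symbols were updated through a RefSeq table: 26933 probes by accession, 5570 by symbol, 894 by synonym, while 7777 kept the file's name. The text names all members, up to 4 genes of each pathway list with the smallest p, the 6 nearest profiles and markers given as checks. Ifnar1, Socs1, Iigp1, Daxx and the interferon genes were named after their values were seen. So were Ifi27l1, Ly6c2, Cd3d, Cd79b, Elane, Prtn3 and Ctsg. The members and lists were chosen with earlier results of these data known. Some items are not reported here. One alternative, no scaling, was added after seeing the data.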

Additional observations from a re-analysis of the deposited data

How the results depend on the processing

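Over all probes, 0 passed in the main setting, with normexp on all spots, quantile normalization, outlier spots left out, no filter on dim probes, the brightest probe of each gene only and without any 1 array; 106 passed with median scaling, 267 on the authors' deposited values, 128 among probes well above background on all 4 arrays, 2480 with the intensity trend, 3545 with normexp fitted without control spots, 2160 with no scaling and 6342 at an unadjusted p under 0.05. Of the calls, 85 were higher with median scaling, 211 on the deposited values, 1372 with normexp fitted without control spots and 2068 with no scaling. The effector probes called under these settings numbered 3, 6, 5, 9, 9, 12 and 14 in the same order, and 0 in the main setting. Of these calls 3, 6, 5, 9, 8, 12 and 12 were higher in KO. The lower call with normexp fitted without control spots was a probe of Ifit2. The median log2 difference of the effector probes, 0.90 in the main setting, was -0.0325 with normexp on all spots, 0.37 with normexp fitted without control spots and 1.22 with no scaling; leaving out 1 array at a time gave 0.78 to 0.95. The median of all probes was -0.31, -0.10 and 0.29 in those 3 settings. Among the 160 values of single genes under the 16 alternatives, 129 kept their direction and side of the threshold, 26 passed where they had not, and 5 reversed: Ifit1 (-0.66), Ifit3 (-0.22), Mx1 (-0.80) and Mx2 (-0.35) with normexp on all spots, and Ifit2 (0.0068) with no scaling. The normexp reversals went with the control spots in the fit, since none was seen without them; the cause was not tested further. The replicate numbers share only a number (correlation of deviations 0.03 over 2 pairs), and with a replicate block 0 probes passed and the effector median was 0.90. Signals near background limit Ifit1, Mx1 and the Rsad2 probes at bases 540 and 909. For Ifit1 and Mx1 the 2 WT arrays lay 0.48 and 0.41 apart.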

Other observations

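Paralogs and chromosomal neighbours of the effectors were mixed: of 10 tested, 7 were higher in KO and 3 lower, with a median log2 difference of 0.29. At an unadjusted limma p under 0.05, 4 were higher and 1 lower, beside 11.9% and 12.1% of all genes. The count of lower genes is thus near its background. Under 6 other background corrections and scalings 6 to 9 of the 10 were higher. Cmpk2, a nucleotide kinase that lies next to Rsad2, was at 1.89 and 1.93 in WT and 2.22 and 2.29 in KO, a log2 difference of 0.34 ± 0.09 (SE), and its other probe differed by 0.18 ± 0.10. Agrn, the basement membrane protein agrin, lies close to Isg15 and was at 2.30 and 2.40 in WT and 3.11 and 3.22 in KO, a difference of 0.82 ± 0.10 (SE). Aen, an exonuclease gene next to Isg20, differed by 0.30 ± 0.08.

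In the Ifit cluster, the probe of Ifit3b, a near-identical copy of Ifit3, read -6.26 and -5.38 in WT and -4.88 and -4.96 in KO. Its log2 difference was 0.90 ± 0.32 (SE, limma adjusted p = 0.204), on the side of Ifit3. The probe was well above background on only 3 arrays, so this value is poorly determined. Ifit1bl1 read -4.43 and -4.03 in WT and -4.77 and -5.04 in KO, a difference of -0.68 ± 0.19, on the side of Ifit2. Its second probe was not well above background on any array. Cross-hybridisation between these copies was not tested.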
